A study of Homo sapiens with 12 samples.

Results

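Transcripts of 6 neutrophil-attracting CXC chemokines, CXCL1, CXCL2, CXCL3, CXCL5, CXCL6 and CXCL8, were followed in cultured kidney tubule cells. The genes were taken by symbol, and all 6 matched a row of the deposited table of 20286 genes. The cells were HK-2, a human line immortalised from proximal tubule, labelled wild type and grown in DMEM with fetal bovine serum. Recombinant S100A8/S100A9, S100A9 or S100A8 had been added at 5 mg/mL, which is how the labels write the dose, and control cells received an equal amount of PBS. All 4 groups were sampled at 48 h with 3 libraries each, and the labels do not say that these came from separate cultures, so p-values measure only the spread between libraries, which may be technical. Both proteins bind calcium, are abundant in neutrophils and monocytes, and pair as calprotectin. The expression host of the recombinant proteins is not given, the dose unit could not be checked, and the line stands for tubule epithelium without the leukocytes that these chemokines act on.

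CXC chemokines are small secreted proteins. Those studied here carry a short glutamate-leucine-arginine motif ahead of their first cysteines. They draw neutrophils by binding the receptor CXCR2 and, for some of them, CXCR1 as well. Epithelial cells make them after signals that activate the transcription factor NF-kB, and tubule epithelium is a known source of CXCL8 in the inflamed kidney. They are bound at cell surfaces by proteoglycans, and their messages are kept short-lived by proteins that recognise AU-rich or stem-loop elements.

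The 6 genes lie in a cluster on chromosome 4 that spans 359 kb in GENCODE 29 on GRCh38. CXCL8 (ENSG00000169429) occupies 73740506 to 73743716 on the plus strand, followed by CXCL6 (ENSG00000124875) from 73836497 to 73849064 and CXCL1 (ENSG00000163739) from 73869393 to 73871242. On the minus strand come CXCL5 (ENSG00000163735) from 73995642 to 73998779, CXCL3 (ENSG00000163734) from 74036589 to 74038807 and CXCL2 (ENSG00000081041) from 74097035 to 74099293. The build behind the deposited counts is not known, so these positions are those of the annotation and not of the counts.

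All 6 promoters hold the same NF-kB motif, which is why their sequences are shown. The stretches below are RefSeq promoter sequence of GRCh38.p14, 5′ to 3′ on the strand of the gene, with the 9 bases GGAATTTCC in capitals.
CXCL8: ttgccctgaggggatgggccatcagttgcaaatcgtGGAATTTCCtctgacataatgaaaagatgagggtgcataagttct
CXCL2: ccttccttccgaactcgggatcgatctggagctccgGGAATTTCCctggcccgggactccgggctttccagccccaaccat
CXCL3: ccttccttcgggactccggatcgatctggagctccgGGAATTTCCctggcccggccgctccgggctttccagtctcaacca
CXCL1: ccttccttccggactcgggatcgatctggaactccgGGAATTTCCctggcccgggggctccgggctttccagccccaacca
CXCL5: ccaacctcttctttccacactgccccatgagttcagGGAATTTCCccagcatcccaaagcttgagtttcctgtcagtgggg
CXCL6: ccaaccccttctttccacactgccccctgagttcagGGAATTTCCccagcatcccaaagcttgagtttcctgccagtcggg
They lie for CXCL8 at chr4:73740442-73740522 (plus strand), CXCL2 at chr4:74099228-74099308 (minus strand), CXCL3 at chr4:74038723-74038803 (minus strand), CXCL1 at chr4:73869279-73869359 (plus strand), CXCL5 at chr4:73998723-73998803 (minus strand), CXCL6 at chr4:73836553-73836633 (plus strand). In GENCODE 29 the genes other than CXCL1 start further upstream than in RefSeq, so that these stretches run into or lie within the gene there. The window searched ran from 250 bases before to 50 bases after the RefSeq transcript start, on both strands. The 9 bases occurred in 6 of 6 windows of these chemokines, always in the sense of the gene. They started between 91 and 77 bases before the transcript start. Several of these promoters are alike in sequence, so the 6 windows are not separate observations. The string searched for is the one these promoters share, and variants of it were not searched for. The shares that follow describe how often this string occurs and test nothing. Of all 27305 promoter windows of the same length 129 held it (0.472%), and of 10827 windows of genes tested 46 did (0.425%). Among other CXC chemokines it was found in 2 of 9 windows, those of CXCL10 and CXCL11. No window was searched for PF4 or CXCL16.

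Around the shared 9 bases the promoters fell into groups by sequence. CXCL1 and CXCL3 were identical at 82.5% of aligned positions and CXCL5 and CXCL6 at 83.1%, whereas CXCL8 reached at most 48.0% with any of the other promoters. A TATA-like ATAAAA was found in 5 of 6 windows, all but that of CXCL6. At any position in the window it was found in 16.4% of all windows and 7.81% of those of genes tested. In the 5 chemokine windows it started 30 or 31 bases before the transcript start, a position not counted for the other genes. The AP-1 element TGANTCA was found in the CXCL8 window and in none of the other 5, against 7.76% of all windows and 4.56% of those of genes tested. The GC box GGGCGG was found in 3 of 6 (CXCL1, CXCL3, CXCL6), against 44.6% of all windows and 70.1% of those of genes tested. No match of one motif overlapped that of another. CXCL8 had the largest log2 difference of the 4 tested genes after S100A9, and the 250 bases before its start are given below (chr4:73740319-73740568, plus strand), with the AP-1 element, the NF-kB motif and the TATA-like bases in capitals in that order.
CXCL8: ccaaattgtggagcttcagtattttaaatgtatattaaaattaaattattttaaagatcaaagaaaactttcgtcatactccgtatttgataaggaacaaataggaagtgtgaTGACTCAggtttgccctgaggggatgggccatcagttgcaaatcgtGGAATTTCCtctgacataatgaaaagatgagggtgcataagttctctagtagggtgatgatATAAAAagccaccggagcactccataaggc
The motifs were chosen with the results known, and a match is a description of the letters, not a sign of binding.

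**Figure D1:**
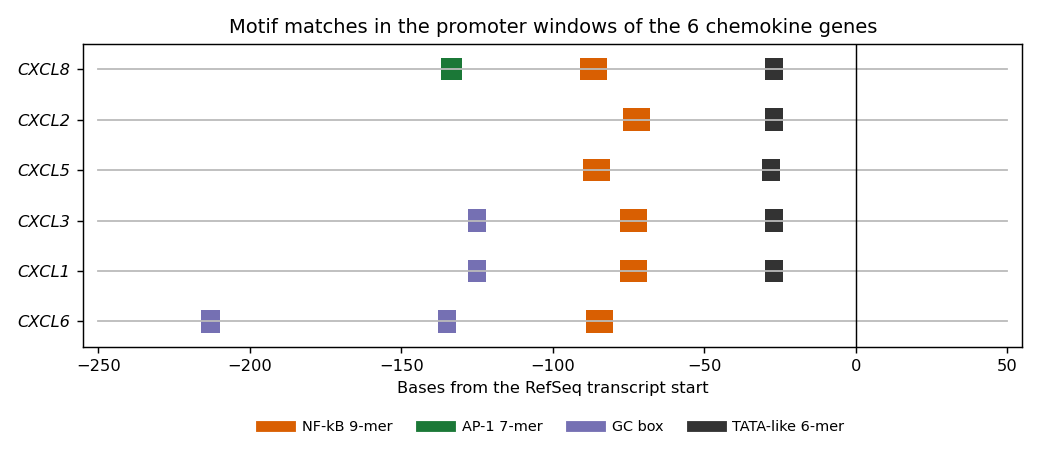
Position of motif matches (coloured blocks) in the promoter windows of the 6 chemokine genes, in bases from the RefSeq transcript start. The NF-kB 9-mer lies within 91 bases before the start in every window, while the AP-1 7-mer is found only in that of CXCL8.

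Per length, the chemokines differed widely in level. The authors' FPKM values, which are scaled to gene length and library total, put CXCL8 first, with 21.8 ± 2.58 FPKM after S100A8/S100A9, 52.8 ± 7.40 after S100A9, 21.1 ± 1.08 after S100A8 and 21.3 ± 1.47 in control (SD, n = 3 each). CXCL2 came next, followed by CXCL5, and CXCL3 was the lowest of the detected genes. CXCL5 and CXCL3 overlapped in FPKM after S100A8/S100A9 and after S100A8 but not after S100A9 or in control; no other neighbours in this order overlapped within a group. Of all counts assigned to the 6 genes, CXCL8 took 71.9% ± 4.62 after S100A8/S100A9, 78.6% ± 1.90 after S100A9, 69.0% ± 1.69 after S100A8 and 73.1% ± 0.774 in control. These are shares of reads and so also reflect transcript length.

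CXCL1 and CXCL6 were close to absent. CXCL1, which encodes a growth-regulated chemokine closely related to CXCL2 and CXCL3, had 0 counts in all 3 libraries after S100A8/S100A9, 0, 2 and 0 counts after S100A9, 1, 0 and 0 after S100A8, and 0 in all 3 controls. CXCL6, whose protein acts on both CXCR1 and CXCR2, had 1 count in 1 library after S100A9 and 0 in the other 11 libraries. Neither gene passed the filter on low counts, and neither was tested. With 3 counts as the limit that a count of 0 allows, a library could have held up to 0.145 CPM (the count relative to the library total) in the largest and 0.189 CPM in the smallest, so fold changes are not given. CXCL2, whose promoter is 71.9% identical to that of CXCL1 and holds the same motif, had between 120 and 336 counts in every library.

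CXCL1, CXCL2 and CXCL3 are near-identical in parts, and reads could be split among them. Of the distinct 50-base words in GENCODE transcripts, 5.73% of those of CXCL1, 9.24% of those of CXCL2 and 5.26% of those of CXCL3 occurred in another of the 3 genes. None of those of CXCL8 or CXCL6 occurred in any other gene, and 1.12% of those of CXCL5 occurred in GLYR1. Among 72 values of the 6 genes, 2 were not whole, and both came from S100A9 replicate 3: 273.87 counts for CXCL2 and 36.13 for CXCL3, which sum to 310.

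**Figure D2:**
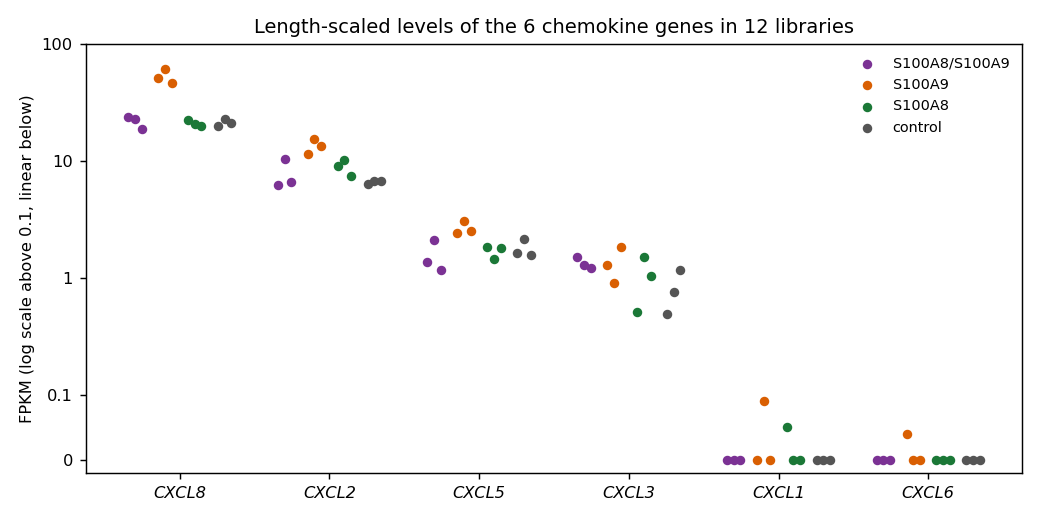
FPKM of the 6 chemokine genes in each of 12 libraries, on a log scale above 0.1 FPKM and a linear one below; each point is a library, with S100A8/S100A9, S100A9, S100A8 and control from left to right. CXCL8 sits above all others, and CXCL1 and CXCL6 lie at 0 FPKM in nearly all libraries.

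Library totals ranged from 15882193 to 20748334 counts. The epithelial markers KRT8, KRT18 and EPCAM were abundant in control, at 543, 243 and 120 CPM. Summed over 5 epithelial markers (KRT8, KRT18, KRT19, EPCAM and CDH1) the level was 1102 to 1174 CPM after S100A8/S100A9, 1048 to 1091 after S100A9, 1095 to 1141 after S100A8 and 1106 to 1134 in control, so that the S100A9 libraries lay below all others. The mesenchymal markers VIM and CDH2, listed with them, summed to 945 to 999 CPM after S100A8/S100A9, 909 to 956 after S100A9, 947 to 990.0 after S100A8 and 917 to 986 in control, which overlapped. Of these 7 genes 0 passed edgeR's test in any comparison (at most 4 at an unadjusted p under 0.05, 0 by DESeq2 or limma), and the part of the epithelial shift in the chemokine results was not tested. Of 9 proximal tubule markers 5 were above the count filter, among them PAX8 at 307 CPM in control, while LRP2, SLC34A1, ANPEP and AQP1 had at most 6 counts in a library. Of 12 leukocyte markers 10 were below the filter, PTPRC had at most 2 counts in a library, and the neutrophil marker FCGR3B had 0. The summed leukocyte level overlapped in all groups and was nearly all CD68, at 90.1 ± 10.3 CPM after S100A9 and 86.3 ± 3.77 in control.

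CXCL8, the best known of these neutrophil attractants, rose after S100A9. After S100A9 its 3 libraries held 50.9, 60.9 and 46.5 FPKM, against 20.0, 22.9 and 21.0 FPKM in control. All 3 libraries after S100A9 lay far above all controls, with no overlap. In counts it reached 1384, 1933 and 1374 after S100A9, against 559, 575 and 586 in control. The fold change was 2.52 (95% interval 2.18 to 2.91; log2 1.33, SE 0.10), with edgeR quasi-likelihood adjusted p = 5.38e-06, and it was the gene of 4th smallest p among 13512 tested. Leaving out any 1 of the 6 libraries kept the call, with a highest edgeR adjusted p of 0.00037. In such bulk samples more producing cells and more RNA per cell cannot be told apart.

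The other treatments left CXCL8 near its control level. After S100A8/S100A9 the libraries held 23.8, 22.9 and 18.9 FPKM and after S100A8 22.2, 20.9 and 20.1 FPKM, both overlapping control. The log2 difference from control was 0.05 (95% interval -0.17 to 0.27) after S100A8/S100A9 and -0.02 (-0.25 to 0.21) after S100A8. In the direct comparison, S100A8/S100A9 lay below S100A9 by a log2 difference of -1.28 (95% interval -1.49 to -1.08, edgeR adjusted p = 5.02e-06). S100A9 lay above S100A8 by 1.35 (1.14 to 1.56, edgeR adjusted p = 6.02e-06). S100A8/S100A9 and S100A8 differed by 0.07 (-0.16 to 0.29) on the log2 scale, an interval of 0.898-fold to 1.22-fold.

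CXCL2, a chemokine that binds CXCR2, rose as well. Its libraries held 11.45, 15.4 and 13.5 FPKM after S100A9, against 6.30, 6.78 and 6.78 FPKM in control, with no overlap. The fold change was 2.05 (95% interval 1.60 to 2.62; log2 1.04, SE 0.17, edgeR adjusted p = 0.0097). This call was lost without control replicate 1 (edgeR adjusted p = 0.137), control replicate 2 (0.109), control replicate 3 (0.0689) or S100A9 replicate 3 (0.0714), with log2 values between 0.92 and 1.14 over all 6 such fits, and in limma on log2(FPKM + 1) (adjusted p = 0.0552).

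Against control, CXCL2 passed the test in neither of the other arms. After S100A8 its libraries held 8.97, 10.1 and 7.46 FPKM, all above the 3 controls, with a log2 difference of 0.42 (95% interval 0.04 to 0.79) that did not pass edgeR's test over all genes (adjusted p = 1.00, unadjusted p = 0.0305). After S100A8/S100A9 they held 6.18, 10.4 and 6.59 FPKM. Replicate 2 stood above the controls and the other two below or among them, and the log2 difference from control was 0.22 (-0.16 to 0.60), or -0.04 without that replicate. Replicate 2 also held the highest CXCL2 value of its group after S100A9 and after S100A8. S100A8/S100A9 was below S100A9 by a log2 difference of -0.82 (-1.16 to -0.48, edgeR adjusted p = 0.0398), a call lost without any of S100A9 replicates 2 or 3 or S100A8/S100A9 replicates 1 or 3 (highest edgeR adjusted p = 0.311). S100A9 lay above S100A8 by 0.62 (0.28 to 0.96) and S100A8/S100A9 below S100A8 by -0.20 (-0.56 to 0.16), neither past the threshold (edgeR adjusted p = 0.257 and 0.98).

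**Figure D3:**
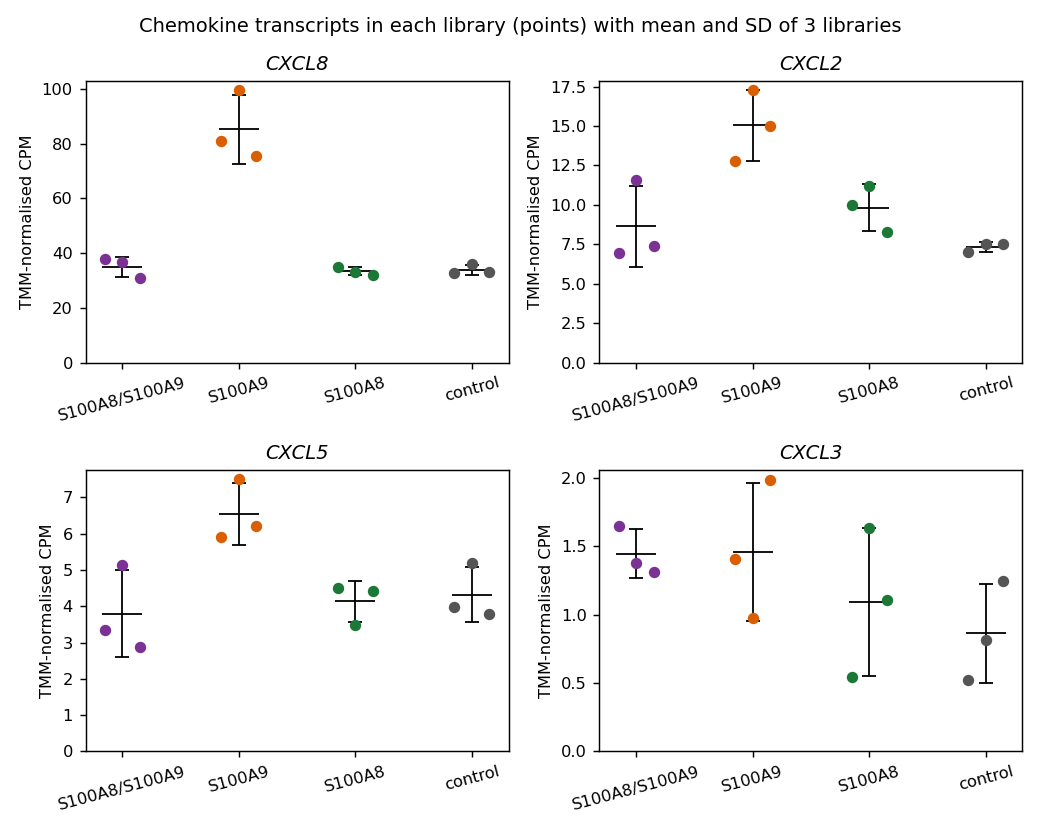
Normalised CPM of the 4 tested chemokine genes; points are libraries, and the black bars give the mean and SD of 3 libraries per group, on linear axes from 0. For CXCL8, CXCL2 and CXCL5 all 3 S100A9 libraries lie above all 3 controls, while for CXCL3 these groups overlap.

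In the fit reported (low-count filter, all 12 libraries, no term for replicate number), CXCL5 did not pass edgeR's test in any comparison. The gene encodes a chemokine first described as an epithelial-derived neutrophil activator. Its libraries held 2.42, 3.07 and 2.54 FPKM after S100A9, against 1.63, 2.15 and 1.56 FPKM in control, and the groups did not overlap. The log2 difference was 0.61 (95% interval 0.23 to 0.99), with edgeR adjusted p = 0.40 over all genes and unadjusted p = 0.0030. After S100A8/S100A9 the values were 1.37, 2.11 and 1.18 FPKM and after S100A8 1.85, 1.44 and 1.81 FPKM, which overlapped control in both arms. S100A8/S100A9 differed from S100A9 by -0.80 (-1.19 to -0.42, edgeR adjusted p = 0.0715), and by -1.07 (adjusted p = 0.0074) without S100A8/S100A9 replicate 2, which again held the highest value of its group; without the low-count filter the difference passed edgeR's test (-0.80, adjusted p = 0.0221). S100A9 differed from S100A8 by 0.67 (0.28 to 1.05, edgeR adjusted p = 0.257).

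CXCL3, another growth-regulated chemokine, had the lowest counts and the widest intervals of the 4 tested genes. It had 34, 23 and 25 counts after S100A8/S100A9, 24, 19 and 36.13 after S100A9, 9, 28 and 19 after S100A8, and 9, 13 and 22 in control. The log2 difference from control was 0.74 after S100A8/S100A9 (95% interval -0.03 to 1.51), 0.74 after S100A9 (-0.03 to 1.51) and 0.34 after S100A8 (-0.47 to 1.15). With 1 library left out the value ran from 0.48 (without control replicate 1) to 1.11 (without control replicate 3) after S100A8/S100A9, from 0.45 (without S100A9 replicate 3) to 1.11 (without control replicate 3) after S100A9, and from -0.061 (without S100A8 replicate 2) to 0.71 after S100A8. The intervals reach from about no change to 2.84-fold for the first 2 arms, and none passed edgeR's test (adjusted p = 0.891, 0.855 and 1.00). Only after S100A8/S100A9 did all 3 libraries lie above all 3 controls. S100A8/S100A9 and S100A9 differed by 0.00 (-0.69 to 0.69).

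Counted over the chemokines, 2 of 4 tested genes rose after S100A9, 0 fell and 2 did not pass, where 0.141% of all 13512 tested genes were called higher. The remaining 2 of the 6 were below the filter. All 3 S100A9 libraries lay above all 3 controls in 3 of 4 genes, against 6.22% of all genes tested. Against S100A8, 1 gene was higher after S100A9 (CXCL8), where 0.17% of all genes were, and the S100A9 libraries lay above those of S100A8 in 3 of 4, against 6.41%. S100A8/S100A9 was lower than S100A9 in 2 (CXCL8 and CXCL2), where 0.222% of all genes were lower, and its libraries lay below those of S100A9 in 3 of 4, against 6.53%. The comparisons share their control or S100A9 libraries and are not independent of each other.

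S100A8 against control gave 0 calls among the 4 genes by edgeR, where 0.0074% of all genes were called in either direction; 1 gene (CXCL2) had an unadjusted p under 0.05, and DESeq2 and limma called 0. S100A8/S100A9 against control also gave 0, where 0% of all genes were called, with 0 at an unadjusted p under 0.05 and 0 by DESeq2 and limma. The same held for S100A8/S100A9 against S100A8, with 0% of all genes called. Groups did not overlap in 1 of 4 genes after S100A8 (CXCL2, higher; 4.42% of all genes) and in 1 of 4 after S100A8/S100A9 (CXCL3, higher; 5.3%).

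**Figure D4:**
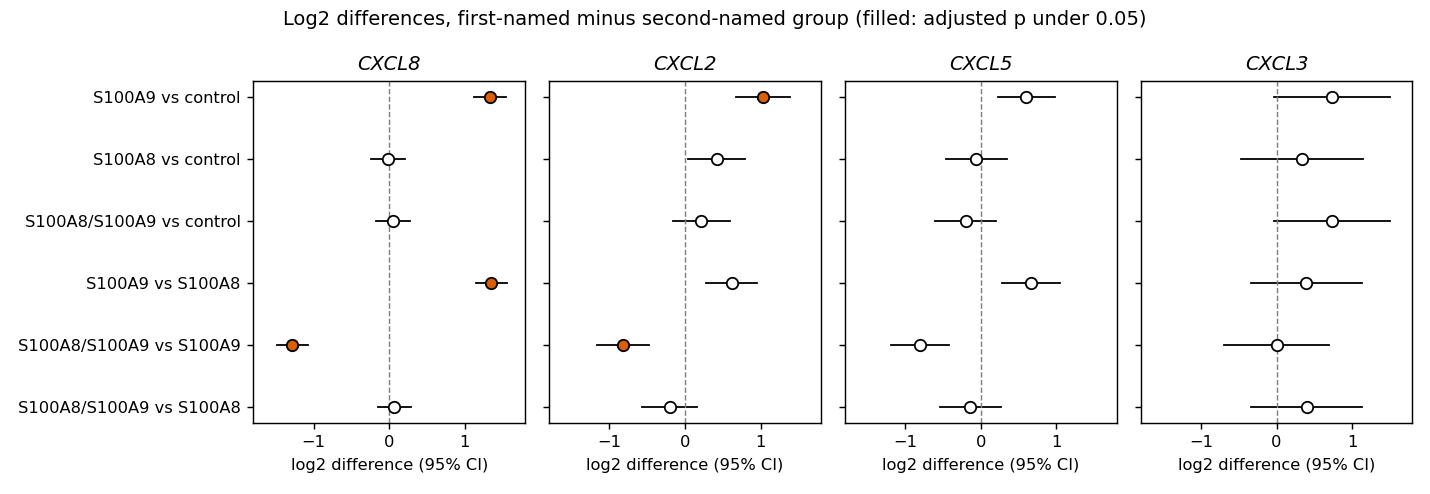
Log2 differences of the 4 tested chemokine genes in 6 comparisons, first-named minus second-named group, with 95% intervals; filled points passed an adjusted p of 0.05 in edgeR. CXCL8 is filled in the 3 comparisons that involve S100A9 and lies near 0 in the others.

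Related genes were also summed, and the calls of CXCL2 against control and against S100A9 held in the sums. CXCL1, CXCL2 and CXCL3 together stood at 16.5 ± 2.12 CPM after S100A9 and 8.21 ± 0.635 in control (SD, n = 3 each), a log2 difference of 1.01 (SE 0.15, edgeR adjusted p = 0.0025). The sum of the 3 genes was 10.1 ± 2.51 CPM after S100A8/S100A9, below S100A9 by -0.73 (SE 0.15, edgeR adjusted p = 0.0346). CXCL5 with CXCL6 differed from control by 0.61 after S100A9 (edgeR adjusted p = 0.39).

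The change was looked for in the surrounding chromosome. Of 15 other genes whose lower coordinate lies within 1 Mb of that of a chemokine gene, 8 were tested and 0 passed edgeR's test in any of the 6 comparisons, with 0 at an unadjusted p under 0.05 and 0 by DESeq2 or limma. EREG, which encodes the growth factor epiregulin, lay at 269 ± 33.1 CPM after S100A9 and 248 ± 34.5 in control (log2 difference 0.12, 95% interval -0.18 to 0.42), and its neighbour AREG, for amphiregulin, differed by -0.01 (-0.13 to 0.10). MTHFD2L, a mitochondrial folate enzyme gene and the nearest tested neighbour of CXCL2, differed by 0.19 (-0.43 to 0.81). The largest difference in size among the 8 was that of PARM1, at -0.64 (-1.33 to 0.05). The platelet chemokine genes PPBP, PF4 and PF4V1, which lie among the 6, had 0 counts in all 12 libraries.

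**Figure D5:**
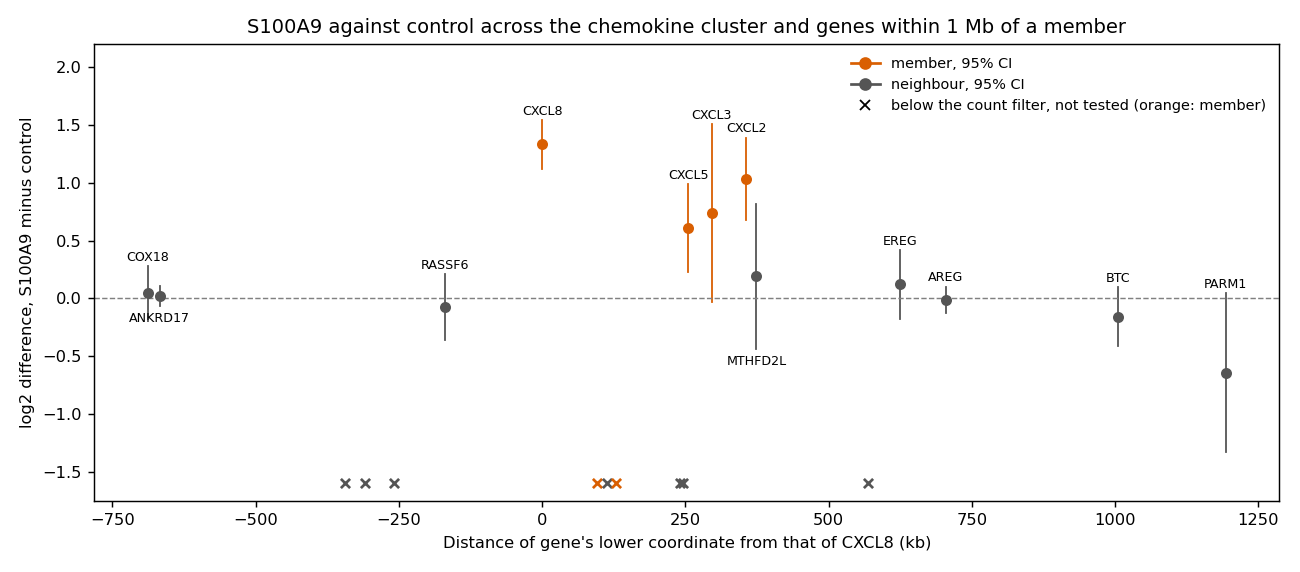
Log2 difference between S100A9 and control (points, with 95% intervals) against the distance of each gene's lower coordinate from that of CXCL8, in kb; crosses mark genes below the count filter. The chemokine genes CXCL8 and CXCL2 lie above 1 and the 8 neighbours have intervals that include 0.

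Other CXC chemokines were nearly silent. Of 11 listed, 6 had 0 counts in all libraries and 1 was tested, CXCL16, a membrane-anchored ligand of CXCR6, at 7.66 CPM after S100A9 and 6.84 in control (log2 difference 0.16, 95% interval -0.09 to 0.41). The interferon-induced CXCL10, whose promoter also holds the NF-kB 9-mer, had 6 counts over all 12 libraries and CXCL11 had 17. CXCL16 did not pass edgeR's test in any comparison and had an unadjusted p under 0.05 in 1, S100A8/S100A9 against control (0.25, 0.01 to 0.50); DESeq2 and limma called it in 0.

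Receptors for these ligands were not detected in the cells. CXCR1 and CXCR2, the receptors on neutrophils, and the scavenging receptor ACKR1 had 0 counts in all 12 libraries. Of 9 receptor genes 2 were tested, CXCR5 and CXCR6, and 0 passed edgeR's test in any comparison; DESeq2 and limma called 0. CXCR5, the receptor for CXCL13, had an unadjusted p under 0.05 in the 3 comparisons that involve S100A8/S100A9 (lowest edgeR adjusted p = 0.588). Its values were 0, 0 and 0.9 counts after S100A8/S100A9, 60.2, 65.45 and 48.44 after S100A9, 0, 0 and 99.58 after S100A8, and 54.1, 77.74 and 98.14 in control. Most were not whole and the S100A8 libraries ran from 0 to the highest value of all.

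Upstream of the chemokines, 0 of 9 tested genes for inducing cytokines and their receptors passed edgeR's test in any comparison; DESeq2 and limma called 0, and at an unadjusted p under 0.05 there was 1 (IL1A) in each of the 3 comparisons that involve S100A8/S100A9 and 0 in the others. Their median log2 difference after S100A9 was -0.02, and that of all genes 0.00. IL1A, which encodes an alarmin that induces CXCL8, stood at 1.12 ± 0.277 CPM after S100A9 and 1.00 ± 0.0914 in control, a difference of 0.17 (-0.50 to 0.83). After S100A8/S100A9 its mean was lower than in the other groups, at 0.589 ± 0.148 CPM, and after S100A8 it was 0.999 ± 0.249. IL1B and TNF were below the count filter with at most 3 and 6 counts in a library, and IL17A and IL17F had 0 counts throughout. The receptor genes TNFRSF1A, IL1RAP and IL17RA were detected, at 136, 37.4 and 19.0 CPM in control.

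Among 20 transcription factors and regulators of such promoters, 1 rose after S100A9, 0 fell and 19 did not pass, where 0.141% of all genes were called higher. At an unadjusted p under 0.05 there were 6 of the 20, beside 791 of all 13512 genes; 15 of the 20 lay above 0, and the median log2 difference was 0.06 beside 0.00 for all genes. The one was NFKBIA, which encodes the inhibitor that NF-kB induces. It averaged 50.6 ± 3.00 CPM after S100A9 and 41.0 ± 2.17 in control (log2 fold change 0.30, SE 0.06, edgeR adjusted p = 0.0431). Its promoter window holds the same 9 bases as those of the 6 chemokines. Of 19 genes called higher after S100A9, 16 had a window, with CXCL2 and CXCL8 among them. Of the 14 windows of the other genes, 1 held these bases (7.14%), that of NFKBIA. No window was searched for C3 or SAA1, which were also called higher. The windows of SOD2, IL6, LCN2, ZC3H12A and ZC3H12C did not hold these bases. Only the exact 9 bases were searched for, so a window without them may still hold a variant NF-kB motif. NFKBIA was also higher after S100A9 than after S100A8 (0.36, SE 0.06, edgeR adjusted p = 0.0049). The call against control was lost without control replicate 1 or 2 or S100A9 replicate 1 or 3 (edgeR adjusted p = 0.174, 0.347, 0.333 and 0.182), and that against S100A8 without S100A8 replicate 2 or 3 or S100A9 replicate 1 (0.0593, 0.0627 and 0.0613). DESeq2 called 1 gene of the list in each of these comparisons and limma 0. In S100A8/S100A9 against S100A9, edgeR called 0 of the 20, DESeq2 1 and limma 0, with 5 at an unadjusted p under 0.05. S100A8/S100A9 against control and against S100A8 each gave 0 calls, with 3 at an unadjusted p under 0.05. S100A8 against control gave 0 of either. NFKBIA averaged 46.3 ± 2.84 CPM after S100A8/S100A9 and 39.3 ± 1.82 after S100A8. NFKBIZ, for an NF-kB cofactor, differed from control by 0.07 after S100A9 (-0.03 to 0.16).

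Among 11 genes for proteins that decay or stabilise such messages, 2 rose after S100A9, 0 fell and 9 did not pass, where 0.141% of all genes were called higher, and the median was 0.04. ZC3H12A, the RNase regnase that cuts inflammatory messages, averaged 14.1 ± 0.698 CPM after S100A9 and 9.24 ± 0.637 in control (log2 fold change 0.61, SE 0.10, edgeR adjusted p = 0.0044). Its relative ZC3H12C averaged 73.0 ± 2.49 CPM after S100A9 and 60.0 ± 0.838 in control (0.28, SE 0.05, edgeR adjusted p = 0.0158). Both were also higher than after S100A8, by 0.49 and 0.31 (edgeR adjusted p = 0.0377 and 0.0048), a call that ZC3H12A lost in each of 6 fits with 1 library left out (highest 0.206) and ZC3H12C without S100A8 replicate 3 (0.0966) or S100A9 replicate 3 (0.0882). Both were lower after S100A8/S100A9 than after S100A9, by -0.57 and -0.28 (edgeR adjusted p = 0.0070 and 0.0130). Against control, ZC3H12A was lost without control replicate 1 (edgeR adjusted p = 0.0589), and ZC3H12C without control replicate 1 or 2 or S100A9 replicate 1 or 3 (0.137, 0.0985, 0.0614 and 0.226). Against S100A9, ZC3H12A was lost without S100A9 replicate 2 (0.0741) or S100A8/S100A9 replicate 3 (0.0886), and ZC3H12C without S100A9 replicate 3 (0.161) or S100A8/S100A9 replicate 1 (0.126). DESeq2 called 2 of the list in S100A9 against control, 1 in S100A9 against S100A8 and 2 in S100A8/S100A9 against S100A9, and limma called 1, 0 and 0. ZFP36, the AU-rich element binder tristetraprolin, differed from control by -0.04 (-0.32 to 0.25).

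Of 9 tested surface proteoglycan genes 0 passed edgeR's test in any comparison, with a median of -0.01 after S100A9. At most 3 had an unadjusted p under 0.05 in a comparison, DESeq2 called 1 in S100A9 against control and 1 in S100A8/S100A9 against S100A9, and limma called 0. SDC4, a syndecan, averaged 248 ± 23.9 CPM after S100A9 and 204 ± 8.63 in control, a log2 difference of 0.28 (0.13 to 0.44, edgeR adjusted p = 0.306).

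Genes of like pattern were ranked by Pearson's r of log2(CPM + 0.1) with each chemokine over 12 libraries, among 12757 other genes of at least 1 CPM on average. The values describe libraries that share treatment groups. Nearest to CXCL8 were SOD2 (ENSG00000112096, r = 0.98), SAA1 (0.97, whose reads may be shared with its near-copy SAA2), PDZK1IP1 (0.97), LCN2 (0.97) and C3 (0.96). Over the 9 libraries without S100A9 the same genes had r of -0.48, 0.66, 0.22, 0.10 and -0.19, so the likeness lay mostly in the 3 S100A9 libraries. Nearest to CXCL2 were SDC4 (0.89), IL6 (0.89) and COPRS (0.88), with r of 0.67, 0.70 and 0.75 without the S100A9 libraries. Nearest to CXCL5 were PSMA3 (0.91), SLBP (0.88) and FAM50A (0.87), with 0.91, 0.83 and 0.72 without them. For CXCL3 they were NAGLU (0.89), DDX10 (0.89) and HASPIN (0.87), with 0.88, 0.91 and 0.85. None of these 6 genes near CXCL5 or CXCL3 passed edgeR's test after S100A9 against control. All were picked for high r over the 12 libraries, so r over 9 of these is no separate test of likeness. Between the chemokines themselves, r was 0.83 for CXCL2 with CXCL8 and 0.82 for CXCL5 with CXCL8 over 12 libraries, and 0.17 and 0.47 over the 9 without S100A9. CXCL3 had r of 0.26 with CXCL8.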

How the data were processed

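Per the labels' protocols, RNA was enriched with oligo(dT) beads, fragmented, reverse transcribed with random primers and sequenced on an Illumina NovaSeq instrument. Per the file headers, the authors deposited 1 table of counts and FPKM values for every gene in each library. As deposited by the authors, 12% of the count entries are not whole, so these expected counts are estimates, and FPKM is the authors' scaling to gene length and depth. No aligner, counter or annotation is named in the sources used here. GRCm38 and mm10 appear in the submitters' processing notes, whereas all gene IDs are human. Names came from a gene name table for 20228 IDs and from GENCODE for 50; 8 had none.

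After rounding, expected counts went into edgeR 4.0.16 (R 4.3.3): filterByExpr (minimum count 10) left 13512 genes, libraries were scaled by TMM, and a robust quasi-likelihood model with 1 coefficient per group was fitted to all 12 libraries. P-values were two-sided, adjusted by the Benjamini-Hochberg method over the genes tested, with a threshold of 0.05. Standard errors came from the quasi-likelihood statistic and intervals are at 95%. Limits from counts of 0 cover counting error only. Alternatives were a replicate block, DESeq2 1.42.0 (size factors, Wald test), no filter, no robust option, the 6 libraries compared alone, limma 3.58.1 on log2(FPKM + 1) and log2(FPKM + 0.1), summed paralogs and leaving out each library. The procedure was also run on simulated counts of independent libraries, with no effect of replicate number. No result here rests on that run.

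The chemokines and all gene lists were chosen with earlier results of these data known. Named were the 6 chemokines, list members past the threshold or at 0, and 5 genes of likest pattern for CXCL8 and 3 for each other; list members outside this rule, such as EREG, IL1A and SDC4, were chosen after their values were seen. Promoters are from RefSeq on GRCh38.p14, aligned with Biopython 1.88.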

Additional observations from a re-analysis of the deposited data

How the results depend on the processing

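The number of chemokines called was 2 in S100A9 against control. It was 1 with limma on log2(FPKM + 1) and with limma on log2(FPKM + 0.1), and 1 to 2 with a library left out. In S100A8/S100A9 against S100A9 the 2 became 1 with either limma fit, 1 on only the 6 libraries compared and 1 to 3 with a library left out. In S100A9 against S100A8 a replicate block gave 2 in place of 1. In the other comparisons 0 was called under every alternative run. CXCL2 was the call that was lost in each case, and CXCL8 passed the threshold in its 3 comparisons with S100A9 under every alternative. The labels give no pairing of replicate numbers, and the fit reported took none. Same-numbered libraries had correlations of -0.08 to 0.15 in their deviations, 2 of 18 above 0.1. Still, 11 of 18 were most alike with their own number, and replicate 2 was so in every comparison. Whether the replicate numbers share an effect was not tested. With the block, CXCL2 passed in S100A9 against S100A8 (0.61, edgeR adjusted p = 0.0047). CXCL5 passed in S100A8/S100A9 against S100A9 (-0.80, edgeR adjusted p = 0.0132). Of all genes, 42 were called with the block in S100A9 against control, against 20 without it. The numbers were 69 against 25 in S100A9 against S100A8, and 71 against 34 in S100A8/S100A9 against S100A9. CXCL5 also passed in S100A8/S100A9 against S100A9 without the low-count filter (-0.80).

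Signs turned only for differences that were not called in the fit reported. CXCL3 in S100A8/S100A9 against S100A9 was 0.00 in the fit reported and -0.00063 in DESeq2, and ranged from -0.22 to 0.29 with a library left out. Ranges over left-out libraries also crossed 0 in S100A8 against control for CXCL3 (-0.061 to 0.71), CXCL5 (-0.15 to 0.090) and CXCL8 (-0.053 to 0.025), in S100A8/S100A9 against control for CXCL2 (-0.036 to 0.36) and CXCL8 (-0.011 to 0.13), and in S100A8/S100A9 against S100A8 for CXCL5 (-0.40 to 0.023). The causes were not tested. The calls of NFKBIA, ZC3H12A and ZC3H12C kept their direction under every alternative run, but several were lost. NFKBIA in S100A9 against control was lost without the robust option (edgeR adjusted p = 0.0825) and on only the 6 libraries (0.0761), and ZC3H12A in S100A9 against S100A8 with DESeq2 (adjusted p = 0.0527) and on only the 6 libraries (edgeR, 0.0568). With either limma fit all 8 calls of these genes were lost (adjusted p = 0.0813 to 0.587) except that of ZC3H12A in S100A9 against control (0.0376 and 0.0466). Counts limit what can be said of CXCL1 and CXCL6, which could not be tested, and CXCL3 had at most 36.13 counts in a library and standard errors of 0.34 to 0.39.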
